A study of Homo sapiens with 6 samples.

Results

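Receptor tyrosine kinases were examined as a gene family in SU-CCS-1, an established line of clear cell sarcoma with the EWSR1::ATF1 fusion gene (EA1). A list of 49 receptor genes was matched by symbol to the table of gene counts, which held 29 of them among its 18118 genes, and the other 20 were not analysed here. The cells received 5 pmol of siRNA for 48 h, either the control siNeg1 or 1 of 2 siRNAs against the fusion, siEA1-1 and siEA1-2, and each of these 3 groups has 2 RNA-seq libraries of 1 cell line. The labels name both EA1 siRNAs, while the study's methods name a single one, so what sets siEA1-1 and siEA1-2 apart is known from the labels alone. Nothing in the labels says that the libraries of a group came from separate cultures, so each p-value measures the spread between these libraries, which may be technical. Of the 29 receptors, 26 passed the filter on low counts and were tested in 1 fit over all 14571 genes that passed, with edgeR's quasi-likelihood F test and p-values adjusted by Benjamini-Hochberg, and a gene was called at an adjusted p under 0.05. A positive log2FC stands for a higher level in siNeg1, so a positive value is a fall with knockdown and a negative value a rise. Both comparisons use the same siNeg1 libraries.

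Receptor tyrosine kinases are single-pass membrane proteins that carry a ligand-binding part outside the cell and a kinase inside it. Binding of a ligand brings receptor chains together, the kinases phosphorylate each other on tyrosine, and adaptor proteins bound there start the RAS-MAPK, PI3K and PLCG pathways, which Sprouty proteins, CBL ligases and phosphatases restrain. Clear cell sarcoma shares the melanocyte program under MITF and SOX10, and the hepatocyte growth factor receptor MET and the neuregulin receptor ERBB3 are known members of the family in melanocytic cells.

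The libraries held between 5942808 and 7599305 counted reads, so that 3 counts, the smallest level taken as different from 0, corresponded to 0.386 to 0.534 normalised CPM, the read count scaled to effective library size. This floor covers counting error only. ATF1, a partner gene in the fusion, was lower with both EA1 siRNAs. It stood at 82.2 and 87.4 CPM in siNeg1, 21.2 and 20.3 with siEA1-1, and 21.7 and 22.3 with siEA1-2. These counts do not separate the fusion transcript from that of the intact ATF1 gene. Against siEA1-1 its log2FC was 2.03 (edgeR adjusted p = 6.7e-07), and against siEA1-2 it was 1.94 (edgeR adjusted p = 1.05e-06). EWSR1, the other partner, was not called, with a log2FC of 0.11 (edgeR adjusted p = 0.45) and 0.04 (edgeR adjusted p = 0.789). Its counts likewise do not separate the fusion from the intact gene. All 11 markers of clear cell sarcoma and the melanocyte lineage were in the table. With each siRNA 9 of them rose, where 14.8% of all genes tested did. SOX10 (log2FC -0.09 and -0.23) and GPR143 (-2.52 and -2.04) were not called. The summed level of the 11 markers was 3227 to 3465 CPM in siNeg1, 9102 to 9187 with siEA1-1 and 8312 to 13013 with siEA1-2. Markers of other cell types were low. Summed CPM ran from 2.70 to 3.44 in siNeg1, 8.89 to 11.9 with siEA1-1 and 12.9 to 23.0 with siEA1-2 for the 2 fibroblast markers present of 7. Of these, LUM rose with each siRNA, from 1.80 and 0.771 CPM in siNeg1 to between 6.26 and 18.3 with knockdown. Its log2FC was -2.64 (edgeR adjusted p = 0.00109) and -3.46 (edgeR adjusted p = 0.000153), and COL1A1 was not called. The 2 of 6 endothelial markers stayed between 0.771 and 2.95 CPM, the 2 of 7 leukocyte markers between 2.67 and 6.69, and the 1 of 6 epithelial markers between 0 and 1.15. The part of these markers in the changes of the receptors was not tested, and in bulk RNA fewer cells of a type and less RNA per cell cannot be told apart.

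Per kilobase of exon, MERTK was the most abundant receptor in siNeg1. MERTK, the TAM family receptor that binds GAS6 and protein S, stood at 145 and 166 CPM per kb in the siNeg1 libraries. FGFR1, a receptor for fibroblast growth factors, followed at 84.5 and 79.6 CPM per kb. MET came next at 20.6 and 19.5 CPM per kb, and then DDR1, a collagen receptor, at 17.7 and 16.7. ERBB3, next by its mean, spanned DDR1 with 14.5 and 19.6 CPM per kb, so the order of these neighbours was within their spread. The libraries of each of the other neighbouring pairs among the first 5 did not overlap. The remaining 24 receptors in the table lay lower, down to a mean of 0.0296 CPM per kb for ERBB4. The order depends on the length used. With the longest transcript in place of the union of exons, FGFR1 stood first at 227 CPM per kb and MERTK next at 168. On that scale NTRK2 moved from position 13 to position 5, at 22.6 CPM per kb, and MET stood at position 6 with 21.1.

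**Figure D1:**
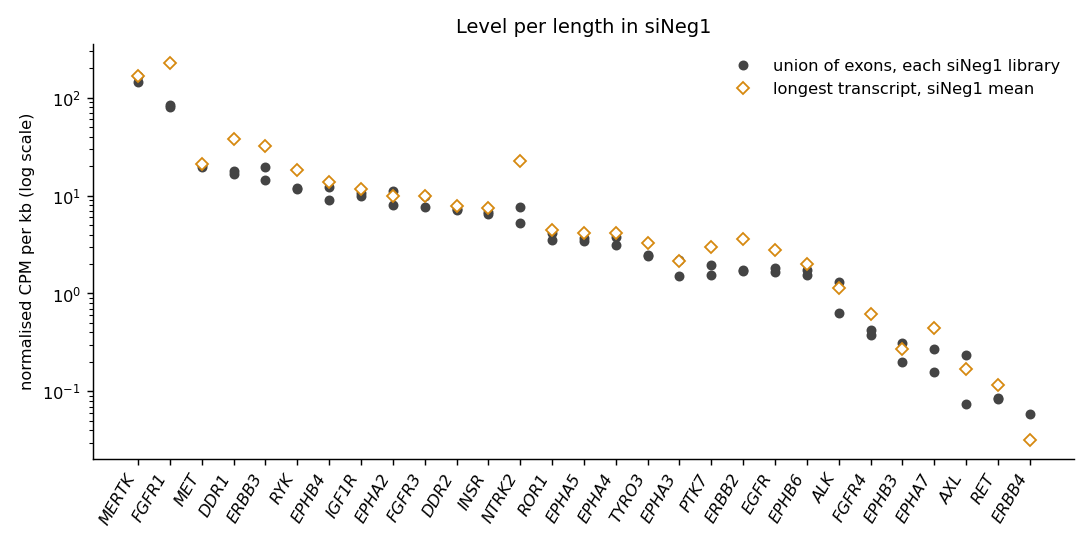
Level of the 29 receptors in siNeg1 as normalised CPM per kb on a log axis, with a point for each siNeg1 library over the union of exons and an open diamond for the siNeg1 mean over the longest transcript. MERTK and FGFR1 stand apart from the rest at a mean of 155 and 82.0 CPM per kb over the union of exons, and a library at 0 (1 of ERBB4) has no point on the log axis.

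With knockdown, receptors were called in both directions, as were genes over the whole set tested. Against siEA1-1, 5 of the 26 tested receptors fell (19.2%, where 20.3% of all genes tested did) and 9 rose (34.6%, against 19.9% of all genes). Against siEA1-2, 7 fell (26.9%, against 18.2% of all genes) and 6 rose (23.1%, against 18.5%). Against the mean of both siRNAs, 7 fell and 8 rose, or 26.9% and 30.8%, where 22.1% and 21.5% of all genes did. The receptors that fell with each siRNA were EPHA2, NTRK2, FGFR1, EPHA4 and EPHB4, 19.2% of those tested against 15.1% of all genes. Those that rose with each were MET, DDR2, ERBB2, TYRO3 and INSR, again 19.2%, against 14.8% of all genes. In 8 receptors both siNeg1 libraries lay above all 4 knockdown libraries and in 8 others below them, 30.8% each, where 27.3% and 28.1% of all genes did so. Against siEA1-1, 8 of 26 receptors (30.8%) had a log2FC beyond 1 in either direction, and 21.2% of all genes did. Against siEA1-2 it was 7 (26.9%), against 18.8% of all genes. The median log2FC of the receptors was -0.15 against siEA1-1 and -0.13 against siEA1-2, beside -0.02 and -0.00 over all genes tested. Without siNeg1 replicate 1, 5 rather than 9 receptors rose against siEA1-1.

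**Figure D2:**
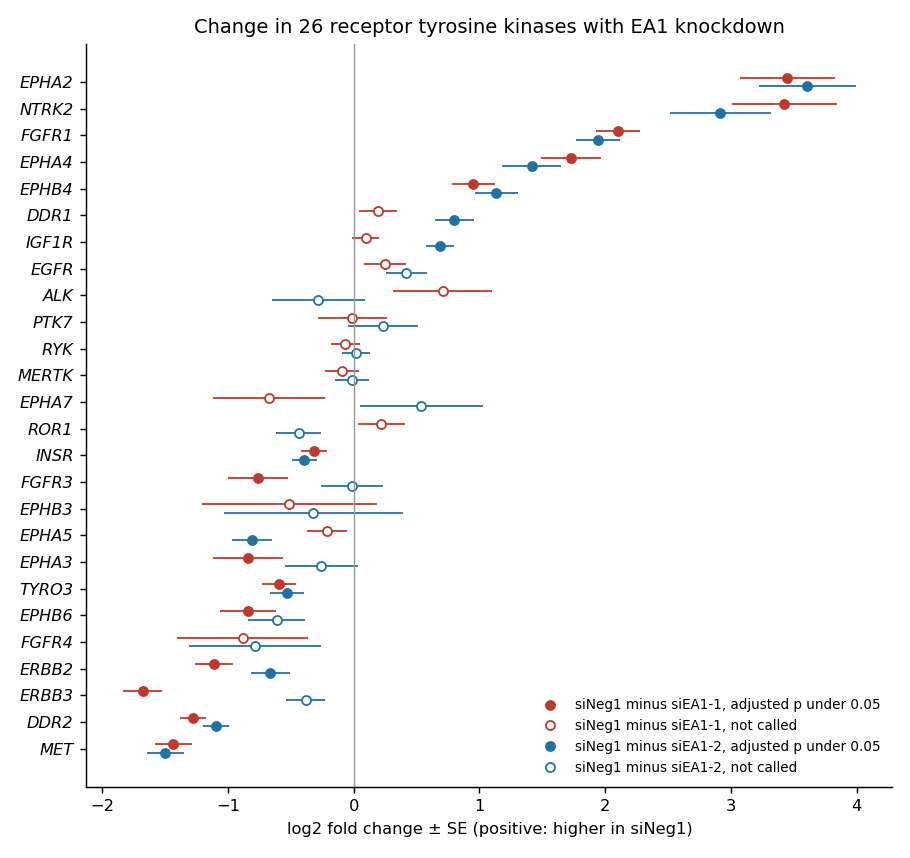
Log2FC with its standard error for the 26 tested receptors against siEA1-1 (red) and siEA1-2 (blue), positive where the level was higher in siNeg1, with filled points at an adjusted p under 0.05. EPHA2, NTRK2, FGFR1, EPHA4 and EPHB4 are filled in both colours at the top, and INSR, TYRO3, ERBB2, DDR2 and MET in the lower part. Both colours share the siNeg1 libraries.

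FGFR1 had the largest fall in absolute level. FGFR1 (ENSG00000077782, chr8:38400215-38468834 of hg38, minus strand) stood at 1453 and 1369 CPM in siNeg1, 324 and 333 with siEA1-1, and 283 and 449.8 with siEA1-2. Every knockdown library lay far below both siNeg1 libraries, with no overlap. Its log2FC was 2.10 (standard error 0.18, 4.29-fold) against siEA1-1, with an edgeR adjusted p of 4.52e-06. Against siEA1-2 it was 1.94 (standard error 0.18, 3.85-fold), with an edgeR adjusted p of 9.37e-06. On the opposite strand LETM2 overlaps 0.802% of the FGFR1 exons, and a gene without a symbol overlaps 2.25%. Whether counting was strand-aware is not given in the sources used here. The other FGF receptors in the table were far lower. FGFR3, which limits growth of cartilage, stood between 32.2 and 87.9 CPM over the 6 libraries, and FGFR4 between 1.80 and 5.11. FGFR4 was not called against either siRNA, with a log2FC of -0.88 (95% interval -2.02 to 0.26) and -0.79 (-1.94 to 0.37).

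Among the EPH receptors, which bind ephrins on neighbouring cells, 3 fell with each siRNA. EPHA2 (ENSG00000142627, chr1:16124337-16156069 of hg38, minus strand), a receptor for A-type ephrins, stood at 45.7 and 33.0 CPM in siNeg1. With siEA1-1 it stood at 3.98 and 3.13 CPM, and with siEA1-2 at 5.34 and 1.40. Both siNeg1 libraries lay far above all knockdown libraries. The fall was 10.9-fold against siEA1-1 (log2FC 3.45, standard error 0.38, edgeR adjusted p = 2.66e-05). It was 12.2-fold against siEA1-2 (log2FC 3.61, standard error 0.39, edgeR adjusted p = 3e-05), and this value rests on few reads, since the log2FC was 4.81 without siEA1-2 replicate 1 and 2.91 without siEA1-2 replicate 2. EPHA4 (ENSG00000116106, chr2:221418027-221574202, minus strand), which binds ephrins of both classes, stood at 23.8 and 28.7 CPM in siNeg1, 8.82 and 6.92 with siEA1-1, and 7.83 and 11.7 with siEA1-2. The groups did not overlap. Its log2FC was 1.73 against siEA1-1 (standard error 0.24, edgeR adjusted p = 0.000154) and 1.41 against siEA1-2 (standard error 0.23, edgeR adjusted p = 0.000655), and 4.67% of its exons overlap a gene without a symbol on the opposite strand. EPHB4 (ENSG00000196411, chr7:100802565-100827523, minus strand), the receptor of ephrin-B2 in blood vessels, stood at 79.6 and 58.6 CPM in siNeg1, 36.3 and 35.1 with siEA1-1, and 35.8 and 27.4 with siEA1-2. Here too the siNeg1 libraries stood above all others. Its log2FC was 0.95 against siEA1-1 (standard error 0.17, edgeR adjusted p = 0.000948) and 1.13 against siEA1-2 (standard error 0.17, edgeR adjusted p = 0.000366).

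NTRK2, the receptor for brain-derived neurotrophic factor, showed a fall of similar size to that of EPHA2 from a higher level. NTRK2 (ENSG00000148053, chr9:84668375-85095751, plus strand) stood at 174 and 252 CPM in siNeg1, 12.2 and 28.0 with siEA1-1, and 13.0 and 42.0 with siEA1-2. The spread within each group was wide, and replicate 2 was the higher library in all 3 groups, but the groups did not overlap. The log2FC was 3.43 (standard error 0.42, 10.7-fold) against siEA1-1, with an edgeR adjusted p of 5.99e-05. Against siEA1-2 it was 2.92 (standard error 0.40, 7.55-fold), with an edgeR adjusted p of 0.00018. Without siEA1-1 replicate 2 the first value was 4.14, without siEA1-1 replicate 1 it was 2.93, without siEA1-2 replicate 2 the second was 4.07 and without siEA1-2 replicate 1 it was 2.36.

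The promoters of these falling receptors are shown because EA1 keeps the DNA-binding part of ATF1, which recognises the ATF/CREB motif. RefSeq windows on GRCh38.p14, 250 bases before to 50 after a start, were found for 27 of the 29 receptors (50 windows), and FGFR1 and ERBB3 had no window in the table used. Each run is the 180 bases upstream of a start, 5′ to 3′ on the strand of the gene, and ends at the base before that start. Capitals mark TGACGTCA in EPHA2 and, elsewhere, TGACG or its reverse complement CGTCA. EPHA2 covers chr1:16156070-16156249 (minus strand). NTRK2 covers chr9:84670169-84670348 (plus strand), the third of its 4 windows. EPHA4 covers chr2:221572305-221572484 (minus strand), the second of its 2 windows, and EPHB4, shown as the faller without a match, covers chr7:100827524-100827703 (minus strand). For NTRK2 and EPHA4 the window with the most TGACG matches upstream of its start was chosen, so the matches shown follow from that choice.
EPHA2: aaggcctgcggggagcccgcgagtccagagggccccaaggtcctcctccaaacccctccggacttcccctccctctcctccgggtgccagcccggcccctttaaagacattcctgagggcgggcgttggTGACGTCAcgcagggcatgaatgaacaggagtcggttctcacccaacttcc
NTRK2: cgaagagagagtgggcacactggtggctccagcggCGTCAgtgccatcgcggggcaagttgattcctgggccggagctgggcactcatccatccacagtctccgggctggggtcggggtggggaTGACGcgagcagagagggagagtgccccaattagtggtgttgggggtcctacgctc
EPHA4: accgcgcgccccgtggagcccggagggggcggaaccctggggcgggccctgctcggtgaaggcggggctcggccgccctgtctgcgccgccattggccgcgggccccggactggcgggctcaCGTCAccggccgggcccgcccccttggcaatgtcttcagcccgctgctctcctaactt
EPHB4: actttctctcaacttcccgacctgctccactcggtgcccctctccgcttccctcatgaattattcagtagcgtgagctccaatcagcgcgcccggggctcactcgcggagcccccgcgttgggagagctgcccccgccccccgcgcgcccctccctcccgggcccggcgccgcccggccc

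TGACGTCA, which reads the same on both strands, begins 51 bases upstream of the EPHA2 start and was found in no other receptor window. It occurs in 1.85% of all 35116 windows and in 3.94% of the 10319 tested genes with a window. TGACG on either strand, which the longer motif contains, was found in 9 of the 27 receptors (33.3%), beside 40.7% of tested genes and 24.6% of all windows. Of the 4 fallers with a window 3 held it. In NTRK2 matches begin 145 and 56 bases upstream, and in EPHA4 58 bases upstream. Of the 5 risers 2 held it, TYRO3 at 140 bases upstream and INSR at 43 bases downstream of the start. TGANNTCA, of which TGACGTCA is 1 form, was found in 4 receptors (14.8%; 11.3% of tested genes and 11.5% of windows), namely EPHA2, NTRK2, DDR2 and EPHA3. The AP1 motif TGAGTCA was found in 3 (11.1%; 4.49% of tested genes and 4.95% of windows), which were DDR1, DDR2 and EGFR. Every match is a match of letters only.

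MET rose with each siRNA. MET (ENSG00000105976, chr7:116672196-116798377, plus strand) stood at 149 and 141 CPM in siNeg1, 423 and 359.7 with siEA1-1, and 475 and 345 with siEA1-2. All 4 knockdown libraries lay well above both siNeg1 libraries. The log2FC was -1.43 against siEA1-1 (standard error 0.15, 2.70-fold higher with knockdown), with an edgeR adjusted p of 1.81e-05. Against siEA1-2 it was -1.50 (standard error 0.15, 2.83-fold higher), with an edgeR adjusted p of 1.74e-05. Its ligand HGF was not in the table. DDR2 (ENSG00000162733, chr1:162631373-162787405, plus strand), a receptor for fibrillar collagen, stood at 79.5 and 80.4 CPM in siNeg1, 187 and 202 with siEA1-1, and 179.6 and 162 with siEA1-2. The replicates lay close together and the groups did not overlap. Its log2FC was -1.28 against siEA1-1 (standard error 0.10, 2.43-fold higher, edgeR adjusted p = 3.4e-06) and -1.10 against siEA1-2 (standard error 0.10, 2.14-fold higher, edgeR adjusted p = 1.3e-05). The calls and directions of MET and DDR2 were kept against each siRNA in all 12 alternatives run, as were those of FGFR1, EPHA2, NTRK2, EPHA4, EPHB4 and ERBB2.

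In the ERBB family, ERBB2 rose with each siRNA. ERBB2 (ENSG00000141736, chr17:39687914-39730426, plus strand), the partner without a ligand of its own, stood at 17.7 and 18.1 CPM in siNeg1, 36.4 and 41.2 with siEA1-1, and 28.5 and 28.2 with siEA1-2. The siEA1-1 libraries were the highest and the siNeg1 libraries the lowest. Its log2FC was -1.11 against siEA1-1 (standard error 0.15, edgeR adjusted p = 0.000144) and -0.66 against siEA1-2 (standard error 0.16, edgeR adjusted p = 0.00597). MIEN1 overlaps 5.53% and PGAP3 1.40% of its exons on the opposite strand. EGFR, the receptor of epidermal growth factor, stood between 19.0 and 28.7 CPM, with both siNeg1 libraries above the others. It was not called, with a log2FC of 0.25 (95% interval -0.11 to 0.61) against siEA1-1 and 0.42 (0.06 to 0.78) against siEA1-2, and edgeR adjusted p values of 0.256 and 0.0688. ERBB4, the other neuregulin receptor, had counts of 0 and 6 in siNeg1, 11 and 8 with siEA1-1, and 6 and 9 with siEA1-2, and did not pass the filter.

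Smaller rises were called for TYRO3 and INSR. TYRO3 (ENSG00000092445, chr15:41557675-41583589, plus strand), a TAM family receptor like MERTK, stood at 26.6 and 26.2 CPM in siNeg1, 38.8 and 40.8 with siEA1-1, and 37.9 and 38.3 with siEA1-2. The log2FC was -0.59 against siEA1-1 (standard error 0.13, edgeR adjusted p = 0.00452) and -0.53 against siEA1-2 (standard error 0.14, edgeR adjusted p = 0.0098). Its call against siEA1-2 was lost in DESeq2 (adjusted p = 0.0511) and without siNeg1 replicate 2 (edgeR adjusted p = 0.0741). INSR (ENSG00000171105, chr19:7112255-7294414, minus strand), the insulin receptor, stood at 69.4 and 73.4 CPM in siNeg1, 89.6 and 88.4 with siEA1-1, and 95.4 and 92.2 with siEA1-2. For both genes the siNeg1 libraries lay below all others. The log2FC of INSR was -0.32 against siEA1-1 (standard error 0.10, edgeR adjusted p = 0.0263) and -0.39 against siEA1-2 (standard error 0.10, edgeR adjusted p = 0.00991). The first call was lost in DESeq2 (adjusted p = 0.137), without siNeg1 replicate 1 (edgeR adjusted p = 0.160), without siNeg1 replicate 2 (0.103), without siEA1-1 replicate 1 (0.124) and without siEA1-1 replicate 2 (0.127). The second was lost without siNeg1 replicate 1 (0.0825) and without siNeg1 replicate 2 (0.0566). AXL, the third TAM receptor, had 8 and 3 counts in siNeg1 and 0 in each knockdown library, which allows a level of up to 0.421 to 0.534 CPM there, and it did not pass the filter.

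**Figure D3:**
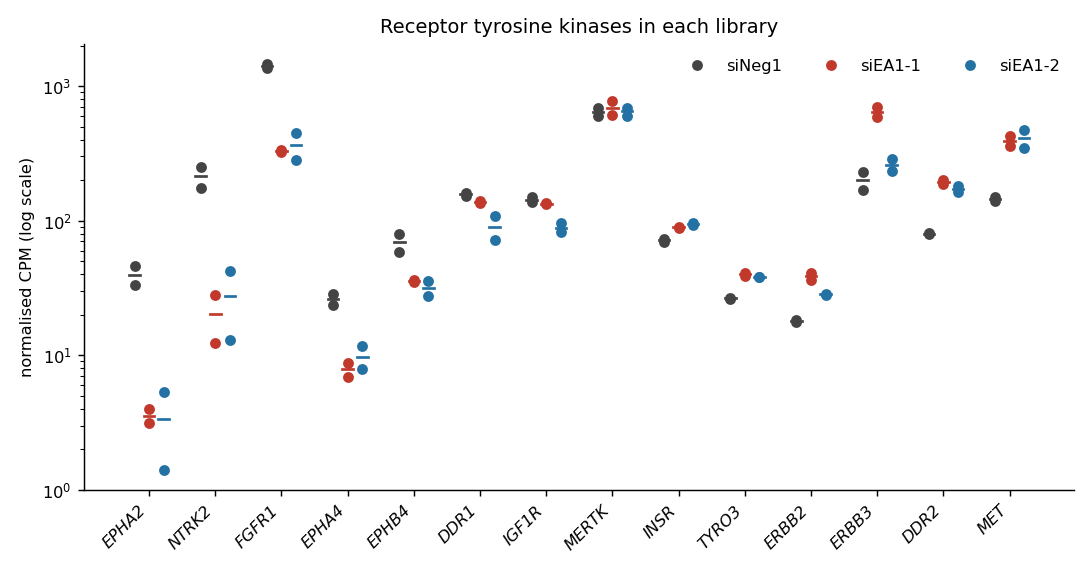
Normalised CPM on a log axis of the 14 receptors given in every library, with a point for each library of siNeg1 (black), siEA1-1 (red) and siEA1-2 (blue) and a bar at each group mean. EPHA2, NTRK2, FGFR1, EPHA4 and EPHB4 on the left lie lower in all 4 knockdown libraries, INSR, TYRO3, ERBB2, DDR2 and MET lie higher in all 4, MERTK overlaps, and ERBB3 is highest in siEA1-1, at 586 and 697 CPM.

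The EA1 siRNAs differed in 2 receptors, both higher with siEA1-1 (7.69% of the 26). Over all genes, 0.796% were called higher and 1.44% lower with siEA1-1 than with siEA1-2. ERBB3 (ENSG00000065361, chr12:56076799-56103505, plus strand), which binds neuregulins and signals through ERBB2, stood at 170.0 and 229.9 CPM in siNeg1, 586 and 697 with siEA1-1, and 235 and 286 with siEA1-2. The siEA1-1 libraries stood apart from the rest, while the siEA1-2 libraries lay just above siNeg1. Its log2FC was -1.68 against siEA1-1 (standard error 0.16, 3.20-fold higher with knockdown, edgeR adjusted p = 8.69e-06). Against siEA1-2 it was -0.38 (95% interval -0.72 to -0.04, edgeR adjusted p = 0.0742). That comparison was called with the replicate number as a block (edgeR adjusted p = 0.00482), without siNeg1 replicate 2 (0.0304) and without siEA1-2 replicate 1 (0.0168). The difference between the siRNAs was 1.30 (standard error 0.15, 2.46-fold, edgeR adjusted p = 0.00246), and it was called in all 12 alternatives. IGF1R (ENSG00000140443, chr15:98648539-98964530, plus strand), the receptor of insulin-like growth factor 1, stood at 149 and 137 CPM in siNeg1, 135 and 133 with siEA1-1, and 81.7 and 95.9 with siEA1-2. Here the siEA1-2 libraries were the low ones. Its log2FC was 0.69 against siEA1-2 (standard error 0.11, edgeR adjusted p = 0.000522) and 0.10 against siEA1-1 (95% interval -0.14 to 0.33, edgeR adjusted p = 0.512). The siRNAs differed by 0.59 (standard error 0.11, edgeR adjusted p = 0.0204), a call lost without siEA1-1 replicate 1 (0.126) and without siEA1-1 replicate 2 (0.208). The count of 2 became 6 with the replicate number as a block, 5 without siEA1-2 replicate 1, 5 without siEA1-2 replicate 2, 1 without siEA1-1 replicate 1 and 1 without siEA1-1 replicate 2. Without siEA1-2 replicate 1 FGFR1 (log2FC -0.46, edgeR adjusted p = 0.0318) and NTRK2 (log2FC -1.09, edgeR adjusted p = 0.0414) were among those called, both lower with siEA1-1.

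Other receptors were called with 1 siRNA alone, and for these the difference between the siRNAs was not called. DDR1 (ENSG00000204580, chr6:30876421-30900156, plus strand) stood at 162 and 153 CPM in siNeg1, 136 and 139 with siEA1-1, and 71.6 and 108 with siEA1-2. Both siNeg1 libraries were above the rest, and the siEA1-2 libraries were the lowest. DDR1 fell against siEA1-2 (log2FC 0.80, standard error 0.16, edgeR adjusted p = 0.00193) and was not called against siEA1-1 (log2FC 0.19, 95% interval -0.14 to 0.53). Its difference between the siRNAs was 0.60 (95% interval 0.26 to 0.95, edgeR adjusted p = 0.0732), called in DESeq2 (adjusted p = 0.0191), with the block (edgeR adjusted p = 0.0168) and without siEA1-2 replicate 2 (0.000291). EPHA5, a neuronal EPH receptor, rose against siEA1-2 (log2FC -0.81, edgeR adjusted p = 0.0018), from 33.9 and 36.4 CPM in siNeg1 to 57.7 and 65.7. Its difference between the siRNAs was -0.60 (edgeR adjusted p = 0.0732), and EPHA5-AS1 overlaps 5.44% of its exons on the opposite strand. With the block that difference was -0.61 (edgeR adjusted p = 0.0123), and without siEA1-2 replicate 2 it was -0.68 (0.0327). Against siEA1-1 alone, FGFR3 rose by a log2FC of -0.76 (edgeR adjusted p = 0.0249), a call lost without siNeg1 replicate 1 (0.160) and without siEA1-1 replicate 2 (0.308). Its difference between the siRNAs was 0.75 (edgeR adjusted p = 0.14), and it was called with the block (edgeR adjusted p = 0.00297) and without siEA1-2 replicate 2 (0.00653). EPHA3, another receptor of A-type ephrins, rose against siEA1-1 by a log2FC of -0.84 (edgeR adjusted p = 0.0321), a call lost in DESeq2 (adjusted p = 0.0511), without siNeg1 replicate 1 (edgeR adjusted p = 0.191) and without siEA1-1 replicate 2 (0.377). EPHB6, which lacks an active kinase, rose against siEA1-1 by a log2FC of -0.84 (edgeR adjusted p = 0.0106), and the call was lost without siNeg1 replicate 1 (0.0648) and without siEA1-1 replicate 1 (0.113). Against siEA1-2 the log2FC of EPHB6 was -0.61 (edgeR adjusted p = 0.0534), called with the block (edgeR adjusted p = 0.0418).

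**Figure D4:**
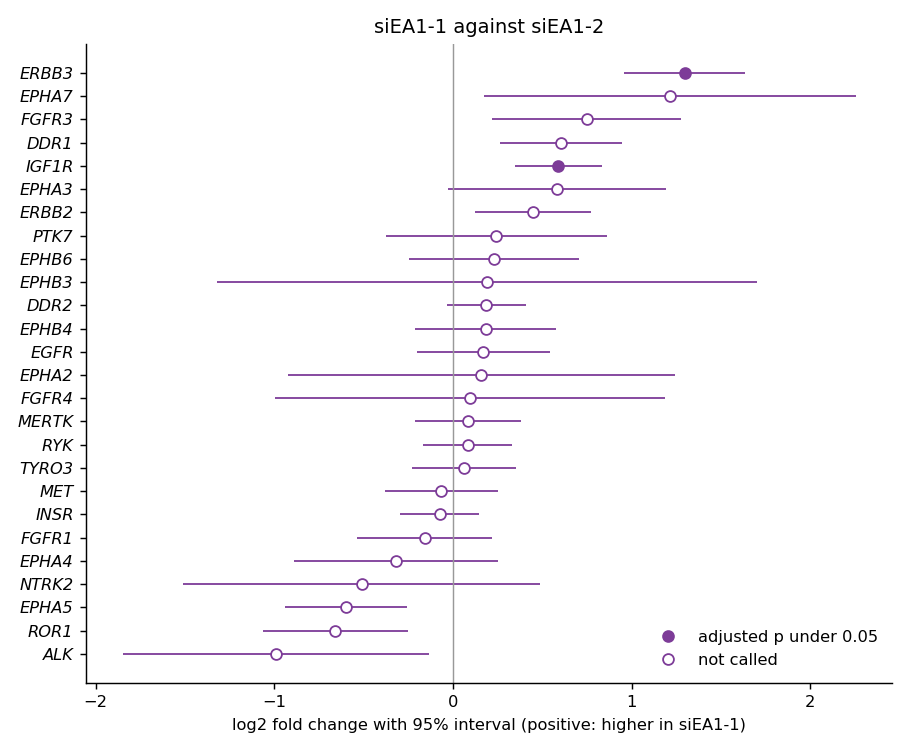
Log2FC of siEA1-1 against siEA1-2 with its 95% interval for the 26 tested receptors, positive where the level was higher with siEA1-1. The filled points, at an adjusted p under 0.05, are ERBB3 at 1.30 and IGF1R at 0.59, and open intervals that leave out 0 did not pass the adjustment over all genes.

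MERTK did not change detectably, from the highest level per kb among the receptors over the union of exons. MERTK (ENSG00000153208, chr2:111898607-112029561, plus strand) stood at 599.6 and 685 CPM in siNeg1, 605 and 769 with siEA1-1, and 603 and 693 with siEA1-2, and the groups overlapped. Its log2FC was -0.10 against siEA1-1 (95% interval -0.39 to 0.20) and -0.01 against siEA1-2 (95% interval -0.31 to 0.28). RYK, a WNT receptor without an active kinase, lay between 86.3 and 104 CPM, with intervals of -0.31 to 0.18 and -0.23 to 0.27. Among receptors of the WNT pathway, ROR1 (21.9 to 40.2 CPM) and PTK7 (9.79 to 19.1 CPM) were not called either. ROR1 had a log2FC of -0.44 against siEA1-2 (edgeR adjusted p = 0.081), called without siEA1-2 replicate 1 (0.019). Its difference between the siRNAs was -0.66 (edgeR adjusted p = 0.0941), called with the block (edgeR adjusted p = 0.0454) and without siEA1-2 replicate 1 (log2FC -0.86, edgeR adjusted p = 0.0144). The last 3 tested receptors were low throughout. ALK, which is active in the nervous system during development, lay between 3.79 and 10.5 CPM, EPHA7 between 1.54 and 6.54 and EPHB3 between 0.562 and 2.49. ALK was called against siEA1-1 without siNeg1 replicate 1 (log2FC 1.13, edgeR adjusted p = 0.0421), where the fit of all libraries gave a log2FC of 0.71 (edgeR adjusted p = 0.176). RET, the receptor of the GDNF family, lay between 0.178 and 0.853 CPM and did not pass the filter.

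The make-up of the family changed with these shifts. Over the 29 receptors, CPM per kb summed to 378 and 397 in siNeg1, 381 and 432 with siEA1-1, and 342 and 365 with siEA1-2. The siEA1-2 libraries were the lowest, and those of siNeg1 and siEA1-1 overlapped. On other scales the siNeg1 libraries were above all knockdown libraries. Plain CPM summed to 3469 and 3574 in siNeg1, 2932 and 3225 with siEA1-1, and 2461 and 2699.9 with siEA1-2. With the longest transcript as length the sum was 609 and 629.8 CPM per kb in siNeg1, 516 and 582 with siEA1-1, and 436 and 488 with siEA1-2. Over the union of exons, FGFR1 made up 22.4% and 20.1% of this sum in siNeg1, 4.94% and 4.49% with siEA1-1, and 4.81% and 7.17% with siEA1-2. MET went from 5.45% and 4.92% in siNeg1 to 15.4% and 11.5% with siEA1-1 and 19.2% and 13.1% with siEA1-2. ERBB3 went from 3.84% and 4.95% in siNeg1 to 13.1% and 13.8% with siEA1-1, and stood at 5.88% and 6.69% with siEA1-2. MERTK made up between 38.4% and 46.0% of the sum over the 6 libraries. With the longest transcript the shares differed in size. FGFR1 then led in siNeg1 with 38.4% and 35.0%, against 25.7% and 28.4% for MERTK, and fell to between 9.22% and 14.8% in the knockdown libraries, where MERTK led with 30.7% to 37.2%. The ratio of MET to FGFR1 in CPM per kb over the union of exons was 0.244 and 0.245 in siNeg1, 3.11 and 2.57 with siEA1-1, and 3.99 and 1.83 with siEA1-2. With the longest transcript it was 0.0926 and 0.0932 in siNeg1, 1.18 and 0.975 with siEA1-1, and 1.52 and 0.693 with siEA1-2, so that MET was above FGFR1 in 2 of the 4 knockdown libraries on that scale. The change of scale multiplies the ratio by the same factor in every library, so the order of the libraries cannot differ between scales. The higher ratio in all 4 knockdown libraries follows from the rise of MET and the fall of FGFR1 given above. After knockdown MERTK kept the first place by CPM per kb over the union of exons, and FGFR1 stood at position 4 with each siRNA. With siEA1-1 ERBB3 stood next to MERTK with 54.8 CPM per kb, within the spread of MET at 54.2. With siEA1-2 MET stood next at 56.7 CPM per kb, and ERBB3 at 22.3 and FGFR1 at 21.3 overlapped. These shares come from sums over genes of unequal length and count reads, not receptor protein.

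Ligands of the family were called more often as falling than as rising. This list and the gene lists below were chosen with earlier results of these data known, so their shares only describe the lists. Of 69 listed ligands 37 were in the table and 31 were tested, of which 14 fell (45.2%, beside 20.3% of all genes tested) and 6 rose (19.4%, beside 19.9%) against siEA1-1. Against siEA1-2, 15 fell (48.4%, beside 18.2%) and 4 rose (12.9%, beside 18.5%). Their median log2FC was 0.67 and 0.76, beside -0.02 and -0.00 over all genes. With each siRNA 14 fell and 3 rose, where 15.1% of all genes tested fell with each and 14.8% rose. Without siEA1-1 replicate 1, 3 rather than 6 rose against siEA1-1. The fibroblast growth factors, which include ligands of FGFR1, are given as all those tested, a group chosen after the values were seen. The counts of ligands above include FGF13 among those that fell and FGF14 among those that rose, although both are intracellular. FGF5 stood at 328 and 339 CPM in siNeg1, 44.2 and 41.3 with siEA1-1, and 23.5 and 53.8 with siEA1-2. Both siNeg1 libraries were far above the rest. Its log2FC was 2.96 (edgeR adjusted p = 4.4e-06) and 3.09 (edgeR adjusted p = 4.51e-06). FGF9 fell with a log2FC of 3.10 and 2.78, FGF2 with 2.10 and 1.41, FGF18 with 2.55 and 3.19, while FGF13, an intracellular member of the family, fell from 34.7 and 31.5 CPM in siNeg1 to between 13.2 and 17.6 in the knockdown libraries. FGF2 was not called against siEA1-2 without siNeg1 replicate 2 (edgeR adjusted p = 0.0709) or without siEA1-2 replicate 1 (0.0739). FGF18 lost its call without siNeg1 replicate 1 against siEA1-1 (0.234) and against siEA1-2 (0.128), and against siEA1-1 also without siEA1-1 replicate 1 (0.134) and without siEA1-1 replicate 2 (0.0559). FGF7, a ligand for the epithelial form of another FGF receptor, rose against siEA1-1 with a log2FC of -1.28 (edgeR adjusted p = 0.00956), lost without siNeg1 replicate 2 (0.0732) and without siEA1-1 replicate 2 (0.0767), and had a log2FC of -0.62 against siEA1-2 (edgeR adjusted p = 0.193). FGF14, also an intracellular member, was at 3 counts in siNeg1 as a sum of both libraries and at 23 with siEA1-1 and 93 with siEA1-2, a ratio of 8.46 (95% exact binomial interval 2.56 to 44.01, counting error only) and 35.2 (11.7 to 174). Its rise against siEA1-1 was not called without siNeg1 replicate 2 (edgeR adjusted p = 0.224), without siEA1-1 replicate 1 (0.0591) or without siEA1-1 replicate 2 (0.188).

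Among ligands of the ERBB and EPH receptors, NRG1, HBEGF, AREG, EFNB2 and EFNB1 fell with each siRNA. TGFA fell against siEA1-2 alone, and the others named here were not called or rose. NRG1, the neuregulin that binds ERBB3, stood at 12.9 and 11.4 CPM in siNeg1, 1.42 and 0.165 with siEA1-1, and 0.890 and 0.562 with siEA1-2. The log2FC was 3.84 (edgeR adjusted p = 0.000167) and 4.06 (edgeR adjusted p = 0.000179). These values rest on few reads with knockdown, at counts of 10 and 1 with siEA1-1 and 5 and 4 with siEA1-2. NRG1 was low in the 4 knockdown libraries, in 2 of which ERBB3 was high. NRG2 was not called, at 0.823 to 3.89 CPM, except with the block against siEA1-1 (edgeR adjusted p = 0.0464). Of the EGFR ligands, HBEGF went from 71.7 and 66.0 CPM in siNeg1 to 6.83 and 6.42 with siEA1-1 and 12.6 and 9.27 with siEA1-2, with no overlap (log2FC 3.37 and 2.66, edgeR adjusted p = 3.11e-07 and 1.11e-06). AREG had 21 and 17 counts in siNeg1 and 0 in each knockdown library, which is at least 5.39-fold higher than with siEA1-1 and at least 4.99-fold higher than with siEA1-2, against a floor of 3 counts per library. TGFA had a log2FC of 0.83 against siEA1-1 (edgeR adjusted p = 0.106) and fell against siEA1-2 (log2FC 1.08, edgeR adjusted p = 0.0481). The latter call was lost in DESeq2 (adjusted p = 0.147), without siNeg1 replicate 1 (edgeR adjusted p = 0.0833), without siNeg1 replicate 2 (0.189), without siEA1-2 replicate 1 (0.128) and without siEA1-2 replicate 2 (0.0908). EGF was not called, with a log2FC of -0.42 and -0.22. EFNB2, the ligand of EPHB4 and EPHA4, stood at 72.7 and 78.9 CPM in siNeg1, 13.8 and 15.5 with siEA1-1, and 14.1 and 15.9 with siEA1-2. Ligand and both receptors were lower in all 4 knockdown libraries. The log2FC of EFNB2 was 2.38 (edgeR adjusted p = 6.61e-07) and 2.34 (edgeR adjusted p = 8.83e-07). EFNB1, another B-type ephrin, fell with a log2FC of 0.67 (edgeR adjusted p = 0.0103) and 0.92 (edgeR adjusted p = 0.00208), without overlap. The first call was lost without siNeg1 replicate 1 (log2FC 0.63), siEA1-1 replicate 1 (0.68) or siEA1-1 replicate 2 (0.69). EFNA1, a ligand of EPHA2, was not called, with edgeR adjusted p values of 0.529 and 0.191, nor was EFNA4, with a log2FC of -0.71 and -0.25. EFNA5, which binds EPHA receptors, rose against siEA1-1 (log2FC -1.53, edgeR adjusted p = 0.00705), a call lost without siEA1-1 replicate 1 (0.149), and had a log2FC of -0.82 against siEA1-2 (edgeR adjusted p = 0.126).

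For other named receptors, few ligands were measured. IGF1, the ligand of IGF1R, had few reads in siNeg1, with counts of 5 and 1, the latter under the floor of 3 counts. It rose against siEA1-2, to counts of 65 and 19. In CPM it went from 0.748 and 0.129 in siNeg1 to 11.6 and 2.67 (log2FC -4.00, edgeR adjusted p = 0.00294). Against siEA1-1 its level was 2.13 and 2.14 CPM, with a log2FC of -2.30 (edgeR adjusted p = 0.0708), called with the block (edgeR adjusted p = 0.0203), in the fit of 4 libraries (0.0162), without siEA1-2 replicate 1 (0.0295) and without siEA1-2 replicate 2 (0.0132). The difference of IGF1 between the siRNAs was not called (edgeR adjusted p = 0.219). PROS1, which encodes protein S, lay between 23.0 and 36.1 CPM and was not called, and GAS6, with counts of 5 and 7 in siNeg1, 17 and 0 with siEA1-1, and 15 and 1 with siEA1-2, was not called, the knockdown libraries of each group lying on both sides of siNeg1. BDNF and NTF4, ligands of NTRK2, and IGF2 are not analysed here. Of the collagens that bind DDR1 and DDR2 only COL1A1, a fibroblast marker above, was examined, at 1.65 to 4.63 CPM and with a log2FC of -0.49 and -1.06, not called (edgeR adjusted p = 0.453 and 0.0974). Of the remaining ligands, AGRN (log2FC 1.08 and 1.34), NRTN (1.21 and 1.03), PDGFC (1.21 and 1.26) and VEGFA fell with each siRNA. VEGFD and VEGFB rose with each siRNA, with a log2FC of -1.70 and -1.69 and of -0.83 and -0.91.

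**Figure D5:**
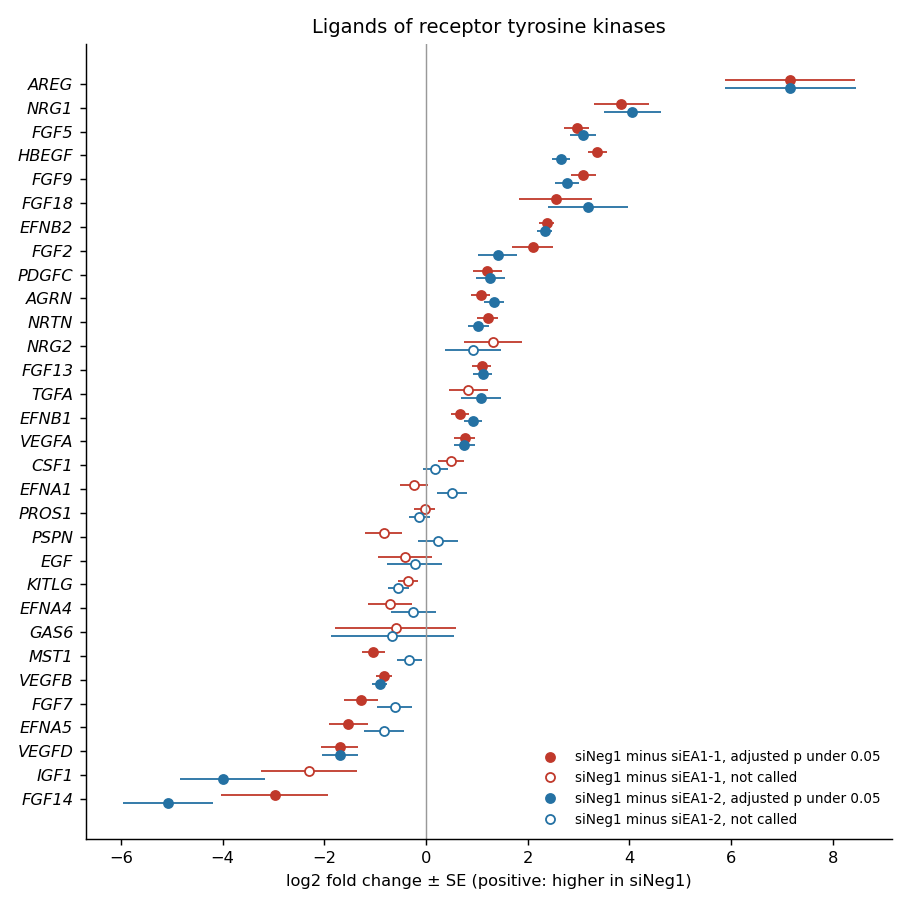
Log2FC with its standard error for the 31 tested ligands against siEA1-1 (red) and siEA1-2 (blue), positive where the level was higher in siNeg1, with filled points at an adjusted p under 0.05. On the right, 14 of the ligands from AREG to VEGFA are filled in both colours (NRG2 in neither and TGFA in blue alone), and VEGFB, VEGFD and FGF14 are filled on the left. The points of AREG (0 counts in every knockdown library) and FGF14 (3 counts in siNeg1) depend on the prior count of the fit.

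Downstream of the receptors, Sprouty genes were among the negative regulators that fell. Of 36 tested negative regulators (39 of 41 listed were in the table), 13 fell and 10 rose against siEA1-1 and 12 fell and 8 rose against siEA1-2, with a median log2FC of 0.10 and 0.17. These are 36.1%, 27.8%, 33.3% and 22.2% of the list in that order. Of all genes tested, 20.3% fell and 19.9% rose against siEA1-1 and 18.2% fell and 18.5% rose against siEA1-2, with medians of -0.02 and -0.00. With each siRNA 9 fell and 6 rose, where 15.1% of all genes tested fell with each and 14.8% rose. SPRY4, a Sprouty inhibitor of RAS-MAPK signalling, stood at 41.2 and 43.6 CPM in siNeg1, 3.41 and 3.79 with siEA1-1, and 2.14 and 2.11 with siEA1-2, with log2FC of 3.55 and 4.31 (edgeR adjusted p = 4e-07 and 2.96e-07). SPRY2, a protein of the same family, fell with a log2FC of 1.76 and 1.79, PTPRB, a receptor phosphatase, with 1.94 and 2.40, and SOCS3, an inhibitor of JAK-STAT signalling, with 1.46 and 2.08. LRIG1, which promotes the breakdown of ERBB receptors and MET, rose with a log2FC of -0.90 and -1.02, and PTPRK, another receptor phosphatase, with -0.60 and -0.86. RASA1, a RAS GTPase-activating protein, rose with -0.85 and -0.49, the second lost without siNeg1 replicate 1 (edgeR adjusted p = 0.108). SOCS5 rose with -0.48 and -0.53 and lost both calls in DESeq2 (adjusted p = 0.133 and 0.0874) and without siNeg1 replicate 2 (edgeR adjusted p = 0.258 and 0.207). The first was lost also without siEA1-1 replicate 1 (0.0789) and without siEA1-1 replicate 2 (0.204), and the second without siEA1-2 replicate 1 (0.142). The 10 regulators that rose against siEA1-1 became 6 without siNeg1 replicate 1, 5 without siNeg1 replicate 2 and 5 without siEA1-1 replicate 2, and the 8 against siEA1-2 became 4 without siNeg1 replicate 1 and 4 without siNeg1 replicate 2.

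Of 47 tested adaptors and steps of the RAS-MAPK, PI3K and PLCG pathways (49 of 57 listed in the table), 9 fell and 16 rose against siEA1-1 and 9 fell and 18 rose against siEA1-2, with a median log2FC of -0.23 and -0.10. These are 19.1%, 34.0%, 19.1% and 38.3% of the list, beside 20.3%, 19.9%, 18.2% and 18.5% of all genes tested. With each siRNA 6 fell and 16 rose, where 15.1% of all genes tested fell with each and 14.8% rose. IRS1, the docking protein of the insulin and IGF1 receptors, rose from 82.2 and 76.6 CPM in siNeg1 to 253 and 284 with siEA1-1 and 185 and 163 with siEA1-2 (log2FC -1.76 and -1.13). VAV3, a guanine nucleotide exchange factor, rose with a log2FC of -2.59 and -2.40, KSR1, a scaffold of the MAPK cascade, with -2.17 and -1.85, and PIK3R3, a regulatory subunit of PI3K, with -1.64 and -1.70. STAT5B, a transcription factor, fell with 1.05 and 1.15, YES1, a SRC family kinase, with 1.21 and 1.09, and RASGRP3, a RAS exchange factor, with 1.47 and 1.12. SRC fell with 1.11 and 1.71, and its call against siEA1-1 was lost in DESeq2 (adjusted p = 0.0982), without siNeg1 replicate 1 (edgeR adjusted p = 0.0909), without siNeg1 replicate 2 (0.123), without siEA1-1 replicate 1 (0.134) and without siEA1-1 replicate 2 (0.144). The 9 that fell against siEA1-1 became 3 without siNeg1 replicate 1, 4 without siNeg1 replicate 2, 5 without siEA1-1 replicate 1 and 3 without siEA1-1 replicate 2, and the 9 against siEA1-2 became 5 without siNeg1 replicate 1.

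Of 23 tested co-receptors and sheddases (23 of 32 listed in the table), 7 fell and 8 rose against siEA1-1 and 6 fell and 6 rose against siEA1-2, with a median log2FC of -0.16 and 0.07. As shares of the list these are 30.4%, 34.8%, 26.1% and 26.1%, where all genes tested had 20.3%, 19.9%, 18.2% and 18.5%. With each siRNA 5 fell and 6 rose, where 15.1% of all genes tested fell with each and 14.8% rose. SDC2, a heparan sulphate proteoglycan, fell from 286 and 255 CPM in siNeg1 to 79.9 and 90.6 with siEA1-1 and 87.9 and 83.5 with siEA1-2 (log2FC 1.67 and 1.66). CD44, the hyaluronan receptor that also takes part in MET signalling, rose with a log2FC of -1.22 and -1.41, and NRP2, a co-receptor of VEGF receptors, with -1.05 and -1.17. FZD7, a WNT receptor, rose with -1.13 and -0.98, the second lost without siNeg1 replicate 2 (edgeR adjusted p = 0.0842). The calls of SDC1 (log2FC 0.80 and 1.01) were lost against each siRNA without siNeg1 replicate 2 (edgeR adjusted p = 0.139 and 0.0628), and the first also without siEA1-1 replicate 1 (0.167). GFRA1, the RET co-receptor for GDNF, was called at levels of 1.65 and 1.93 CPM in siNeg1 against at most 0.421 in the knockdown libraries. RHBDF2 (log2FC 0.75 and 0.55) and GPC1 (-0.63 and -0.47) were called with each siRNA. Each call of these last 3 genes was lost in at least 1 fit without a library, GFRA1 in all 4 that left out a siNeg1 or siEA1-1 library for the first contrast. The 7 that fell against siEA1-1 became 3 without siNeg1 replicate 1, 3 without siNeg1 replicate 2, 1 without siEA1-1 replicate 1 and 3 without siEA1-1 replicate 2. The 8 that rose became 3 without siNeg1 replicate 2. Against siEA1-2 the 6 that fell became 1 without siNeg1 replicate 2, 3 without siEA1-1 replicate 1 and 3 without siEA1-1 replicate 2, and the 6 that rose became 3 without siNeg1 replicate 2.

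Receptor-type kinases outside the 49 were few. Of 8 listed 5 were in the table and 4 were tested. AATK fell with a log2FC of 1.77 and 1.67, from a mean of 13.4 CPM in siNeg1 to at most 5.40 in the knockdown libraries. EPHA8 (log2FC -2.15 and -2.27) and EPHA10 (-1.67 and -1.72), both EPH receptors, rose with each siRNA from 0.748 to 3.09 CPM in siNeg1. These 2 rises were called neither without siNeg1 replicate 1 nor without siEA1-1 replicate 1 in the first contrast, and neither without siNeg1 replicate 1 nor without siEA1-2 replicate 1 in the second, so that the count of 2 became 0 each time. The median log2FC of the 4 was -0.87 and -1.01.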

How the data were processed

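RNA-seq libraries of SU-CCS-1 cells, 2 each of siNeg1, siEA1-1 and siEA1-2, were grouped by their labels. The authors prepared stranded mRNA libraries, used BWA-MEM for alignment to hg38 and featureCounts 1.6.3 for counting, and deposited raw counts per gene, without normalization or pooling, in 18118 genes. BWA-MEM does not model splicing, which can lower counts of genes with short exons. The annotation and the strand setting are not given in the sources used here. Genes without a symbol (2589) stayed in the fit. 0 columns of other samples were present.

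The deposited counts were filtered with filterByExpr (minimum count 10, minimum total 15), which kept 14571 genes, normalized by TMM and tested with edgeR 4.0.16 in R 4.3.3 (quasi-likelihood, 3 groups over 6 libraries, two-sided). The common biological coefficient of variation was 0.109. Standard errors came from the F statistic. The receptors and the gene lists were chosen with earlier results of these data known. Members were named in every library if called with each siRNA in 1 direction with siNeg1 on 1 side of all knockdown libraries, called between the siRNAs, or among the 5 highest per kb in siNeg1. ATF1, the ligands of those receptors and up to 4 genes per list and direction with the largest averaged log2FC among those called with each siRNA were named beside them. The other fibroblast growth factors and the other ligands called with each siRNA were added after their values were seen. Positions and lengths came from GENCODE release 44, which held all 29 receptors. Alternatives were RLE size factors, no filter, a filter of 10 counts in each library, DESeq2 1.42.0, only the libraries compared, the replicate number as a block, and each library left out, where a lone sample is assumed to vary like the others.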

Additional observations from a re-analysis of the deposited data

Results flagged for a closer look

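ERBB3 was flagged because the test of siEA1-1 against siEA1-2 was itself called. Its log2FC between the siRNAs was 1.30, with 586 and 697 CPM with siEA1-1 against 235 and 286 with siEA1-2, beside 170.0 and 229.9 in siNeg1. IGF1R was flagged for the same reason with a difference of 0.59, with 135 and 133 CPM with siEA1-1 against 81.7 and 95.9 with siEA1-2, beside 149 and 137 in siNeg1. With 2 libraries a group, no group was large enough to look for single libraries that stand apart.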

How the results depend on the processing

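Same-numbered libraries deviated together only weakly (correlation of deviations 0.130 for siNeg1 and siEA1-1, 0.199 for siNeg1 and siEA1-2, 0.144 between the EA1 siRNAs, across genes), and nothing in the labels says that a number marks a shared culture. With the replicate number as a block, the receptors called between the EA1 siRNAs went from 2 to 6, and FGFR3 against siEA1-2 reversed to a log2FC of 0.010 without being called; the receptors called against siEA1-1 stayed at 14, those against siEA1-2 went from 13 to 15, and no receptor lost a call under the block. FGFR3 against siEA1-2 reversed also in DESeq2 (0.0034). PTK7 against siEA1-1 reversed with RLE size factors (0.0066), in DESeq2 (0.0034) and in the fit of only the libraries compared (0.0056). DESeq2 moved the co-receptors that fell against siEA1-2 from 6 to 3, the adaptors that fell against siEA1-1 from 9 to 5, and the negative regulators that rose from 10 to 6 and from 8 to 5. With at least 10 counts in every library, 0 of the other receptor kinases rose with either siRNA, since those genes were no longer tested.

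With 1 library left out, the receptors called ran from 1 to 5 between the siRNAs, and those that rose against siEA1-1 from 5 to 9. Ligands that rose against siEA1-1 ran from 3 to 7. Co-receptors ran from 1 to 7 (fell) and 3 to 8 (rose) against siEA1-1, and 1 to 7 and 3 to 7 against siEA1-2. Adaptors that fell ran from 3 to 10 and from 5 to 9, negative regulators that rose from 5 to 10 and from 4 to 8, and the other receptor kinases that rose from 0 to 2 in each contrast. The log2FC of genes not called crossed 0 against siEA1-1 for MERTK (-0.26 to 0.11), EPHA5 (-0.39 to 0.035), PTK7 (-0.28 to 0.32), GAS6 (-1.51 to 5.49) and PROS1 (-0.14 to 0.10). Against siEA1-2 it crossed 0 for MERTK (-0.090 to 0.12), RYK (-0.084 to 0.18), FGFR3 (-0.29 to 0.43), EPHA3 (-0.51 to 0.011), PTK7 (-0.065 to 0.72), ALK (-0.88 to 0.14), EPHB3 (-1.05 to 1.05), GAS6 (-1.64 to 2.43), PROS1 (-0.40 to 0.24) and EWSR1 (-0.046 to 0.16). The cause of these changes was not tested. The fit of only the libraries compared was not run for the mean of both siRNAs, which uses all 6.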
